A study of Mus musculus with 56 samples.

Results

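The livers of mice on the low-dose zalfermin-semaglutide combination were compared with those of mice on high-dose zalfermin. Mice were taken by their treatment label, which gave 8 mice on the combination and 8 on high-dose zalfermin, 16 of the 56 mice sequenced. All were male C57BL/6J mice bought at 5 to 6 weeks of age, fed the AMLN diet (rich in fat, fructose and cholesterol) for 36 weeks, kept in the study only if a liver biopsy showed disease, and then dosed once daily under the skin for 8 weeks on the same diet (DIO-MASH mice). The combination was zalfermin at 0.05 mg/kg with semaglutide at 3 µg/kg, each injected separately, and high-dose zalfermin was 0.2 mg/kg alone. The text deposited with the counts describes the combination as both high doses, whereas the study's methods give both low doses, which are used here. The zalfermin dose, the presence of semaglutide and its separate injection differed between these groups. Their parts in any difference cannot be told apart by this comparison. The labels name no engineered allele, and the other 5 groups (chow-fed vehicle, DIO-MASH vehicle, low-dose zalfermin, and low- and high-dose semaglutide) entered the fit and are used below for reference.

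Zalfermin is a long-acting analog of FGF21, a hormone that acts through FGF receptors with the co-receptor beta-klotho, which the liver and adipose tissue express. Semaglutide is an agonist of the GLP-1 receptor and lowers food intake, largely through the brain. The liver of a male mouse also answers to pulses of growth hormone, which set the male and female patterns of its secreted proteins and cytochromes P450, and to a circadian clock that is entrained in part by feeding.

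Library totals were 6850790 to 17810943 reads in combination mice and 6211126 to 17124553 reads in high-dose zalfermin mice (two-sided exact permutation test of the totals, p = 0.395), over 21935 genes of which 4352 had no read in any mouse. Values per mouse are CPM, reads scaled to library size after TMM normalization, and depend on transcript length, so that they compare mice and not genes. Since whole liver was sequenced, fewer cells of a type and less RNA per cell cannot be told apart. The livers held hepatocyte markers at 82447 to 131527 CPM summed over 7 genes on the combination and 75388 to 131613 CPM on high-dose zalfermin. In their clock genes, 3 of the 8 combination mice (mice 4, 5 and 6) stood apart from the other 13 of these mice, as described further on. The count of genes and many of the values that moved with them are also given without them. Nothing in the labels marks these mice, and the hour of sampling is not given in the sources used here.

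Of 14105 genes tested, 71 (0.503%) differed between the combination and high-dose zalfermin at an adjusted p under 0.05 (edgeR's quasi-likelihood test with Benjamini-Hochberg adjustment). Of these differentially expressed genes (DEGs), 46 (0.326% of genes tested) were higher and 25 (0.177%) lower on the combination. At an unadjusted p under 0.05 there were 1544 genes. Only 18 of the 71 DEGs differed by 1 or more on the log2 scale, 10 of them higher and 8 lower. For 15 DEGs, 8 higher and 7 lower, the values of both groups did not overlap, and among all genes tested 23 (0.163%) had this pattern. For 11335 genes (80.4% of those tested) the 95% interval of the difference lay within 1 on the log2 scale in both directions, that is within a factor of 2, and for 8543 (60.6%) it lay within a factor of 1.5. Without combination mice 4, 5 and 6, 5 genes (0.0354%) passed the threshold, and all 5 were among the 71: Mup2, Capn10, Chpf2, Tmem170 and Vps11. That comparison had 5 mice in place of 8 on the combination. In it, 64 of the 71 DEGs had an unadjusted p under 0.05, as did 1210 (8.58%) of all genes tested. All 71 DEGs had the same sign. Since the mice of that comparison were among those from which the DEGs were chosen, both results follow in part from the choice.

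The DEGs did not lie on 1 side of the other groups. The combination had the highest mean of all 7 groups for 28 of the 46 higher DEGs, chow-fed mice for 13, and high-dose zalfermin the lowest mean for 21. For 16 of the 25 lower DEGs the combination had the lowest mean of the 7 groups, and for 8 high-dose zalfermin had the highest. Such counts follow in part from choosing genes that differ between the combination and high-dose zalfermin, and the share over all genes was not computed. The means of the combination include mice 4, 5 and 6. Differences between low-dose semaglutide and DIO-MASH vehicle, which share no mouse with the combination or high-dose zalfermin, had the same sign as the present difference for 49 of the 71 DEGs (69.0%) and for 57.1% of all genes tested. High-dose semaglutide against vehicle had the same sign for 27 of the 71 (38%, against 51.5% of all genes tested) and low-dose zalfermin against vehicle for 24 (33.8%, against 47.9%). Chow-fed against vehicle mice had it for 37 (52.1%, against 56.2%). These 4 comparisons share the vehicle mice with each other. Across the 71 DEGs, which are not independent replicates, the log2 fold changes of low-dose semaglutide against vehicle and those of the present comparison had a Pearson r of -0.0295. The r was -0.518 for high-dose semaglutide, -0.521 for low-dose zalfermin and -0.513 for chow-fed mice, each against vehicle. Over all genes tested it was 0.142 for low-dose and 0.0575 for high-dose semaglutide, -0.0129 for low-dose zalfermin and 0.121 for chow-fed mice.

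Mup2 had the largest fall among DEGs. It encodes a major urinary protein, a lipocalin that the male liver secretes for excretion in the urine (chr4:60135932-60154289, GRCm38). It ranged from 0.385 to 3.41 CPM (median 1.06) on the combination and from 3.56 to 12.1 CPM (median 4.51) on high-dose zalfermin. All 8 combination mice lay below all 8 high-dose zalfermin mice. The fall was 2.10 ± 0.39 (SE) on the log2 scale (edgeR adjusted p = 0.00719), and -2.63 was the difference without combination mice 4, 5 and 6. DIO-MASH vehicle mice averaged 1.62 CPM and chow-fed mice 5.48 CPM. Mup2 belongs to a cluster of near-identical genes on chromosome 4, and since reads of 1 can match another, its value is uncertain as to the gene. Strand use in counting is not given in the sources used here, so that reads of antisense or overlapping genes could also have been included for any gene.

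Nrep, which encodes a small neuronal regeneration related protein, ranged from 1.69 to 8.41 CPM (median 4.86) on the combination and from 8.99 to 25.3 CPM (median 17) on high-dose zalfermin. Here too the groups did not overlap, and the fall was 1.77 ± 0.44 on the log2 scale (edgeR adjusted p = 0.0406). Vehicle mice averaged 19.9 CPM, near the median of high-dose zalfermin. Arl4d, a small GTPase of the ARF-like family (chr11:101665541-101667832), ranged from 7.15 to 15 CPM (median 10.4) on the combination and from 15.2 to 32.4 CPM (median 23.8) on high-dose zalfermin. It fell by 1.16 ± 0.29 (edgeR adjusted p = 0.0415) with no overlap. Mterf2, a mitochondrial transcription termination factor, ranged from 0.285 to 1.11 CPM (median 0.725) on the combination and from 1.2 to 3.32 CPM (median 1.9) on high-dose zalfermin. Its groups did not overlap either, and its log2 fold change was -1.29 ± 0.30.

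Slc38a3, the sodium-coupled glutamine transporter SNAT3 of hepatocytes, was the most abundant of the 25, from 1143 to 1986 CPM (median 1555) on the combination and from 1792 to 3005 CPM (median 2759) on high-dose zalfermin. The groups overlapped in part, with the 3 lowest values in combination mice 4, 5 and 6, and the fall was 0.72 ± 0.14 on the log2 scale (edgeR adjusted p = 0.00986). Without those mice it was -0.54. High-dose zalfermin lay close to chow-fed mice (mean 2908 CPM), and the combination closer to vehicle (1306 CPM). Slc43a1, a facilitated transporter of large neutral amino acids, ranged from 1.98 to 6.67 CPM (median 4.14) on the combination and from 5.89 to 14.1 CPM (median 8.41) on high-dose zalfermin. It fell by 1.14 ± 0.27 (edgeR adjusted p = 0.0341), and vehicle mice averaged 2.77 CPM, below the median of both groups. Slc25a48, a carrier of the inner mitochondrial membrane, had values of 12.4 to 22 CPM against 24.9 to 35.6 CPM without overlap and a log2 fold change of -0.65 ± 0.14. Its 3 lowest values were in combination mice 4, 5 and 6, and without them the difference was -0.52. Azin1, the antizyme inhibitor that keeps up polyamine synthesis, fell by 0.57 ± 0.12 (edgeR adjusted p = 0.0138), and stayed past the threshold with any 1 of the 16 mice left out.

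**Figure D1:**
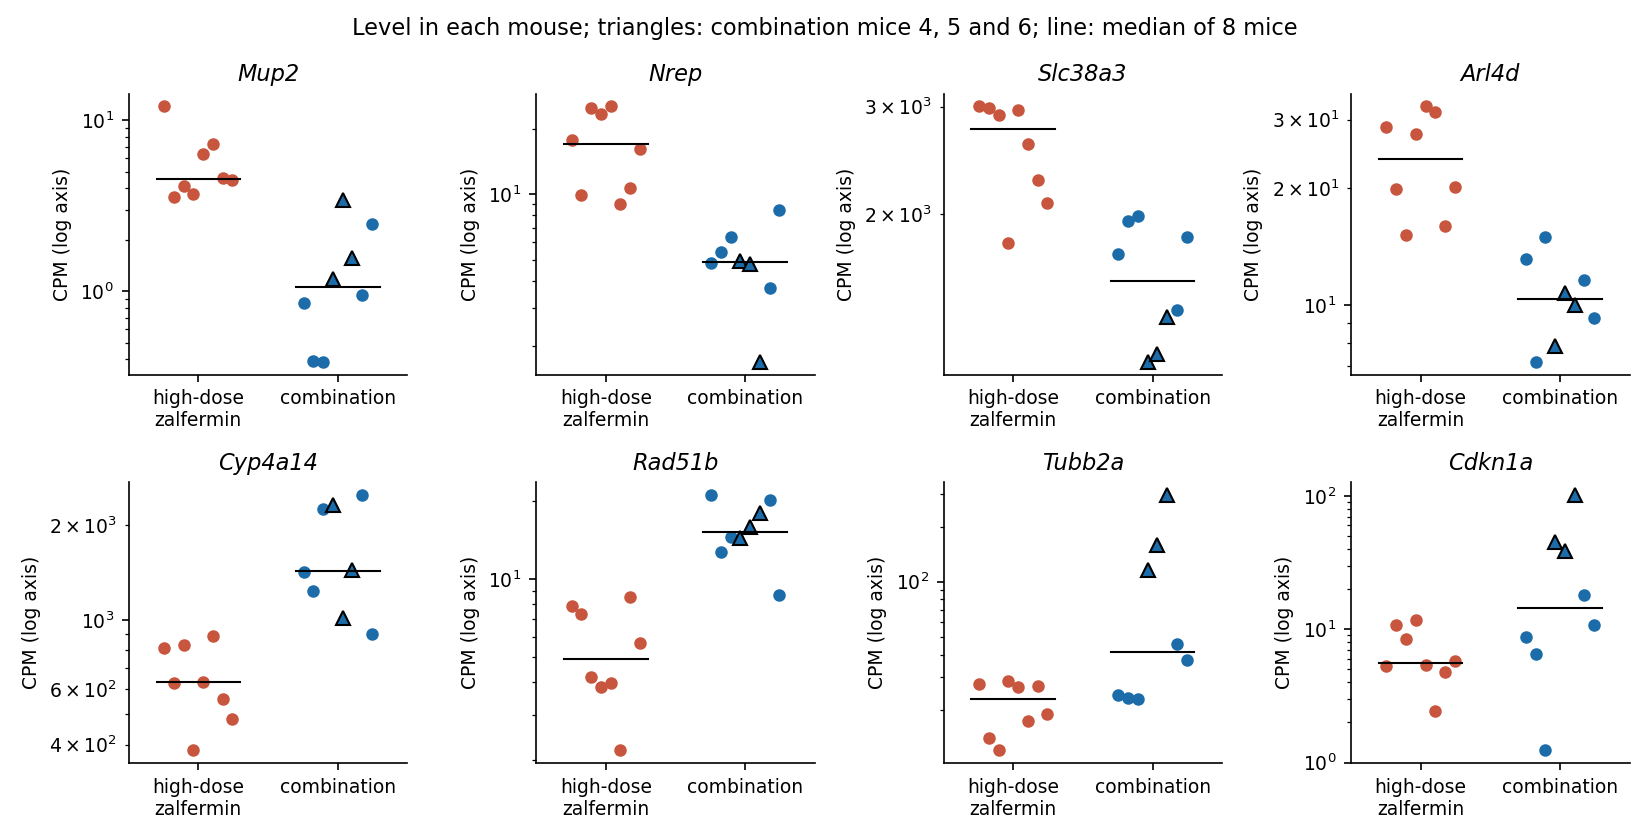
CPM on a log axis in each of the 8 high-dose zalfermin and 8 combination mice for 4 genes that were lower and 4 that were higher on the combination, with triangles for combination mice 4, 5 and 6 and a line at each group's median. For Mup2, Nrep, Arl4d, Cyp4a14 and Rad51b the groups do not overlap, whereas Tubb2a and Cdkn1a are high in the 3 triangles and overlap with high-dose zalfermin in the other 5 combination mice.

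The other large falls were in genes of low level. Gnat1, the rod transducin alpha subunit, ranged from 1.49 to 6.51 CPM (median 4.55) on the combination and from 3.39 to 22.2 CPM (median 10.3) on high-dose zalfermin, a log2 fold change of -1.39 ± 0.32. Tbc1d30, a GTPase-activating protein for Rab proteins, ranged from 3.13 to 15.9 CPM (median 7.53) and from 9.48 to 27.7 CPM (median 17) in the same order, with a log2 fold change of -1.10 ± 0.24 that was -0.72 without combination mice 4, 5 and 6. Inhbb, the beta B subunit of activins, ranged from 1.76 to 4.56 CPM (median 3.42) on the combination and from 3.02 to 12.1 CPM (median 5.88) on high-dose zalfermin (log2 fold change -1.03 ± 0.25). All 3 genes overlapped between groups, and their adjusted p-values (edgeR) were 0.0301, 0.0205 and 0.0406. Tert, the catalytic subunit of telomerase, ranged from 0.976 to 2.17 CPM (median 1.57) on the combination and from 1.82 to 4.54 CPM (median 2.95) on high-dose zalfermin, with a log2 fold change of -0.97 ± 0.24. Stoml1, a stomatin-like membrane protein, ranged from 1.18 to 3.33 CPM (median 2.44) and from 3.27 to 5.45 CPM (median 4.12) in the same order. Its log2 fold change was -0.83 ± 0.20, and -0.58 without combination mice 4, 5 and 6. Bcl6b, a transcriptional repressor related to BCL6, ranged from 1.43 to 4.37 CPM (median 2.88) and from 3.39 to 7.69 CPM (median 4.89), with a log2 fold change of -0.82 ± 0.20. Tmem25, a transmembrane protein, ranged from 3.39 to 9.21 CPM (median 6.97) on the combination and from 8.85 to 14.7 CPM (median 11.8) on high-dose zalfermin, with a log2 fold change of -0.77 ± 0.16 (edgeR adjusted p = 0.016). In each of these last 4 genes the median of the combination lay below the lowest high-dose zalfermin mouse. The remaining 10 lower DEGs had log2 fold changes between -0.75 (Ttc39c) and -0.28 (Ptk2b, the kinase PYK2). They included Fdx1, the ferredoxin that hands electrons to mitochondrial cytochromes P450 (54.8 to 98.9 CPM against 99.5 to 132 CPM), and Fads6, a fatty acid desaturase (96.9 to 133 CPM against 134 to 177 CPM), neither with any overlap.

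Of the higher DEGs, 4 were cytochromes P450. Cyp4a14, a fatty acid omega-hydroxylase and classical target of PPAR alpha (chr4:115486200-115496142), ranged from 902 to 2501 CPM (median 1428) on the combination and from 384 to 887 CPM (median 633) on high-dose zalfermin. All combination mice lay above all high-dose zalfermin mice, and the rise was 1.33 ± 0.34 on the log2 scale (edgeR adjusted p = 0.0486). It was 1.35 without combination mice 4, 5 and 6 (edgeR adjusted p = 0.15). Cyp4a14 did not pass the threshold in 14 of the 16 fits with 1 mouse left out. Vehicle mice averaged 300.5 CPM and reached 580.0 CPM, so that they overlapped with high-dose zalfermin and not with the combination. Cyp4a31, of the same family, ranged from 6.94 to 24.6 CPM (median 10.7) on the combination and from 2.99 to 6.7 CPM (median 5.58) on high-dose zalfermin, again without overlap (log2 fold change 1.29 ± 0.31, edgeR adjusted p = 0.0406). These were the 2 DEGs among the 10 omega-hydroxylases listed. Cyp4a10 had 0.80 ± 0.25 (edgeR adjusted p = 0.125), and Cyp4a12a and Cyp4a12b, the male-biased members, -1.21 ± 0.38 and -1.52 ± 0.45 (edgeR adjusted p = 0.134 and 0.102), and none of these passed the threshold. Of 49 genes of the P450 families 1 to 3 tested, Cyp3a59 (0.85 ± 0.21) and Cyp2c38 (0.69 ± 0.16) were higher and none lower at the threshold. These families hold close paralogs, and reads could have been shared between members.

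Rad51b, a protein of homologous recombination repair (chr12:79297282-79814690), ranged from 8.7 to 21.1 CPM (median 15.2) on the combination and from 2.19 to 8.53 CPM (median 4.94) on high-dose zalfermin. The groups did not overlap, the rise was 1.52 ± 0.32 (edgeR adjusted p = 0.016), and it passed the threshold with any 1 mouse left out. Vehicle mice averaged 16.9 CPM, within the range of the combination, and chow-fed mice 1.38 CPM. Il22ra1, the receptor subunit through which interleukin-22 acts on hepatocytes, ranged from 3.77 to 9.42 CPM (median 5.72) on the combination and from 0.905 to 4.5 CPM (median 2.41) on high-dose zalfermin (1.28 ± 0.28 on the log2 scale, edgeR adjusted p = 0.0239). Sowahb, an ankyrin repeat protein, ranged from 4.09 to 13.6 CPM (median 12.2) and from 1.7 to 7.59 CPM (median 4.71) in the same order (1.10 ± 0.25). Nt5e, the ectonucleotidase CD73 that makes adenosine, ranged from 8.79 to 25.2 CPM (median 12.2) on the combination and from 5.18 to 11.7 CPM (median 6.33) on high-dose zalfermin, and its log2 fold change of 0.96 ± 0.24 was 0.59 without combination mice 4, 5 and 6. All 3 genes overlapped between groups in part. Zfp385a, a zinc finger protein, rose by 0.94 ± 0.16 (edgeR adjusted p = 0.00506) without overlap, and its difference was 0.66 without combination mice 4, 5 and 6. Capn10, a calpain protease, rose by 0.66 ± 0.12 (edgeR adjusted p = 0.00719), also without overlap.

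**Figure D2:**
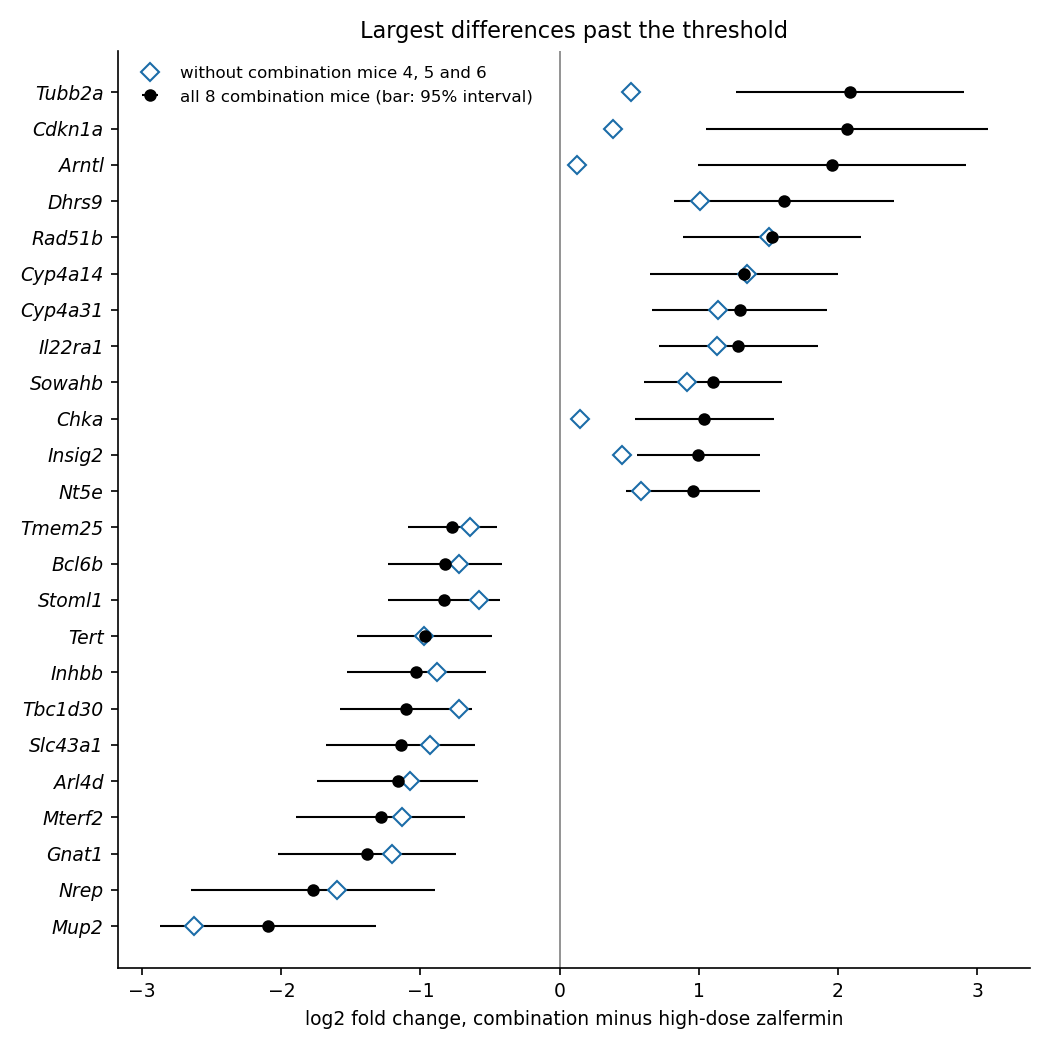
Log2 fold changes (combination minus high-dose zalfermin, horizontal axis) of the 12 largest rises and 12 largest falls among DEGs, with 95% intervals from the fit of all 56 mice as black points and bars, and the values without combination mice 4, 5 and 6 as open diamonds. The diamonds of Arntl, Chka, Cdkn1a and Tubb2a lie far nearer 0 than the points, and those of Rad51b, Cyp4a14 and Tert lie on them.

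The clock genes separated mice within the combination group. Arntl encodes BMAL1, which with CLOCK or NPAS2 drives the transcription of the Per and Cry repressors, of Dbp and of Nr1d1 and Nr1d2, and the last 2 in turn repress Arntl. Arntl (chr7:113207465-113314126) was at 14.8, 17.6 and 24.4 CPM in combination mice 4, 5 and 6. It was at 1.04 to 4.66 CPM in the other 5 combination mice and at 0.827 to 5.15 CPM on high-dose zalfermin. Over the 40 mice of the other groups, the highest value was 3.15 CPM. The 3 mice thus lay above all other 53 mice. Cry1 was 37, 44.2 and 49.1 CPM in them, with 7.02 to 11.5 CPM in the other 5 and 6.18 to 25 CPM on high-dose zalfermin. Dbp, a transcription factor that the clock drives in antiphase to Arntl, was 26, 16.2 and 5.86 CPM in mice 4, 5 and 6. Its range was 68.8 to 171 CPM in the other 5 and 38 to 195 CPM on high-dose zalfermin. The lowest value of the 53 other mice was 38 CPM, in high-dose zalfermin mouse 4. That mouse also had the highest Arntl (5.15 CPM) and Cry1 (25 CPM) of its group. Nr1d1 was 24.9, 7.35 and 14.3 CPM in combination mice 4, 5 and 6, 50.7 to 136 CPM in the other 5 and 17.2 to 113 CPM on high-dose zalfermin, so that high-dose zalfermin mouse 4 overlapped with them. Of the 20 clock genes listed, mice 4, 5 and 6 held the 3 highest or the 3 lowest of the 16 values for 12, as they did for 265 (1.88%) of all genes tested. Because these mice were picked by clock genes after the values were seen, that count is a description.

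Between the groups, Arntl was the 1 clock gene of 20 past the threshold, with a rise of 1.96 ± 0.48 on the log2 scale (edgeR adjusted p = 0.0406), and 0.12 without combination mice 4, 5 and 6. Npas2 was at a low level, with medians of 0.315 CPM on the combination and 0.161 CPM on high-dose zalfermin. Its difference was 2.54 ± 0.71 (edgeR adjusted p = 0.082) with all mice and -0.36 without those 3. Cry1 had 0.85 and -0.34 in the same order, and Dbp -0.72 and -0.15. Per2, a repressor of the clock, differed from these genes in that its value of -0.63 ± 0.19 (edgeR adjusted p = 0.112) was -0.59 without the 3 mice. The whole clock list had a median log2 fold change of -0.23 (-0.09 without them), beside -0.01 over all genes tested.

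The promoters of Arntl, Cry1 and Nr1d2 are shown because combination mice 4, 5 and 6 held the extreme values of all 3 genes among the 16 mice. Nr1d2 was at 54.7, 26.3 and 7.82 CPM in those mice, at 75.7 to 124 CPM in the other 5 and at 56.1 to 103 CPM on high-dose zalfermin. Of the 71 DEGs, 55 had a window in the table used. The windows are the 250 bases before each RefSeq transcription start (GRCm38.p6), at chr7:113207215-113207464 (plus strand), chr10:85185055-85185304 (minus strand) and chr14:18239107-18239356 (minus strand), written 5′ to 3′ with motif matches in capitals. The motifs were searched on both strands: the E-box CACGTG, to which BMAL1 with CLOCK binds, the half-site AGGTCA of the element bound by ROR and REV-ERB receptors, the D-box TTATGNAA bound by DBP, and the CCAAT box, which was added after the Arntl window was seen and reads ATTGG on the other strand.
Arntl: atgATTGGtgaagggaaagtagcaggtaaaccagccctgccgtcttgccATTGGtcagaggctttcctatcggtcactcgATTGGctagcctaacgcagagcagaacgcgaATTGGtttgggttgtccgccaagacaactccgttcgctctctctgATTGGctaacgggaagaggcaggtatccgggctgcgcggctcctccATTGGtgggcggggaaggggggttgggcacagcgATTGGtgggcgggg
Cry1: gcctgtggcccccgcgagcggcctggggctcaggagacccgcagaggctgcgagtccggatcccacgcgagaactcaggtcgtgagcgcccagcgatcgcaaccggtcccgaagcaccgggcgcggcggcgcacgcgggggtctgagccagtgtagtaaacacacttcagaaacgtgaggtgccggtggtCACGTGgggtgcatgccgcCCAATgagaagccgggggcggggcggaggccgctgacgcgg
Nr1d2: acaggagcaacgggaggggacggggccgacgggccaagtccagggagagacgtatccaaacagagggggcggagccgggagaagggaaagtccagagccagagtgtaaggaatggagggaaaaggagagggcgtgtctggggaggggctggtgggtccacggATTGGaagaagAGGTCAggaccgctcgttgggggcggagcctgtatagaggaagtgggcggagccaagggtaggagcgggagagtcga
The Arntl window held 7 CCAAT boxes, all read as ATTGG, a number that 3 of 32851 windows in the table reached (0.00913%), 2 of which are overlapping windows of Arntl itself. It held no match to the other 3 motifs in these 250 bases. Cry1 had 1 E-box that began 60 bases before the start, and 1 CCAAT box. Nr1d2 had 1 AGGTCA, beginning 77 bases before the start, and 1 CCAAT box. Over all windows, 6.02% held an E-box, 14% the AGGTCA half-site, 3.07% a D-box and 33.8% a CCAAT box.

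**Figure D3:**
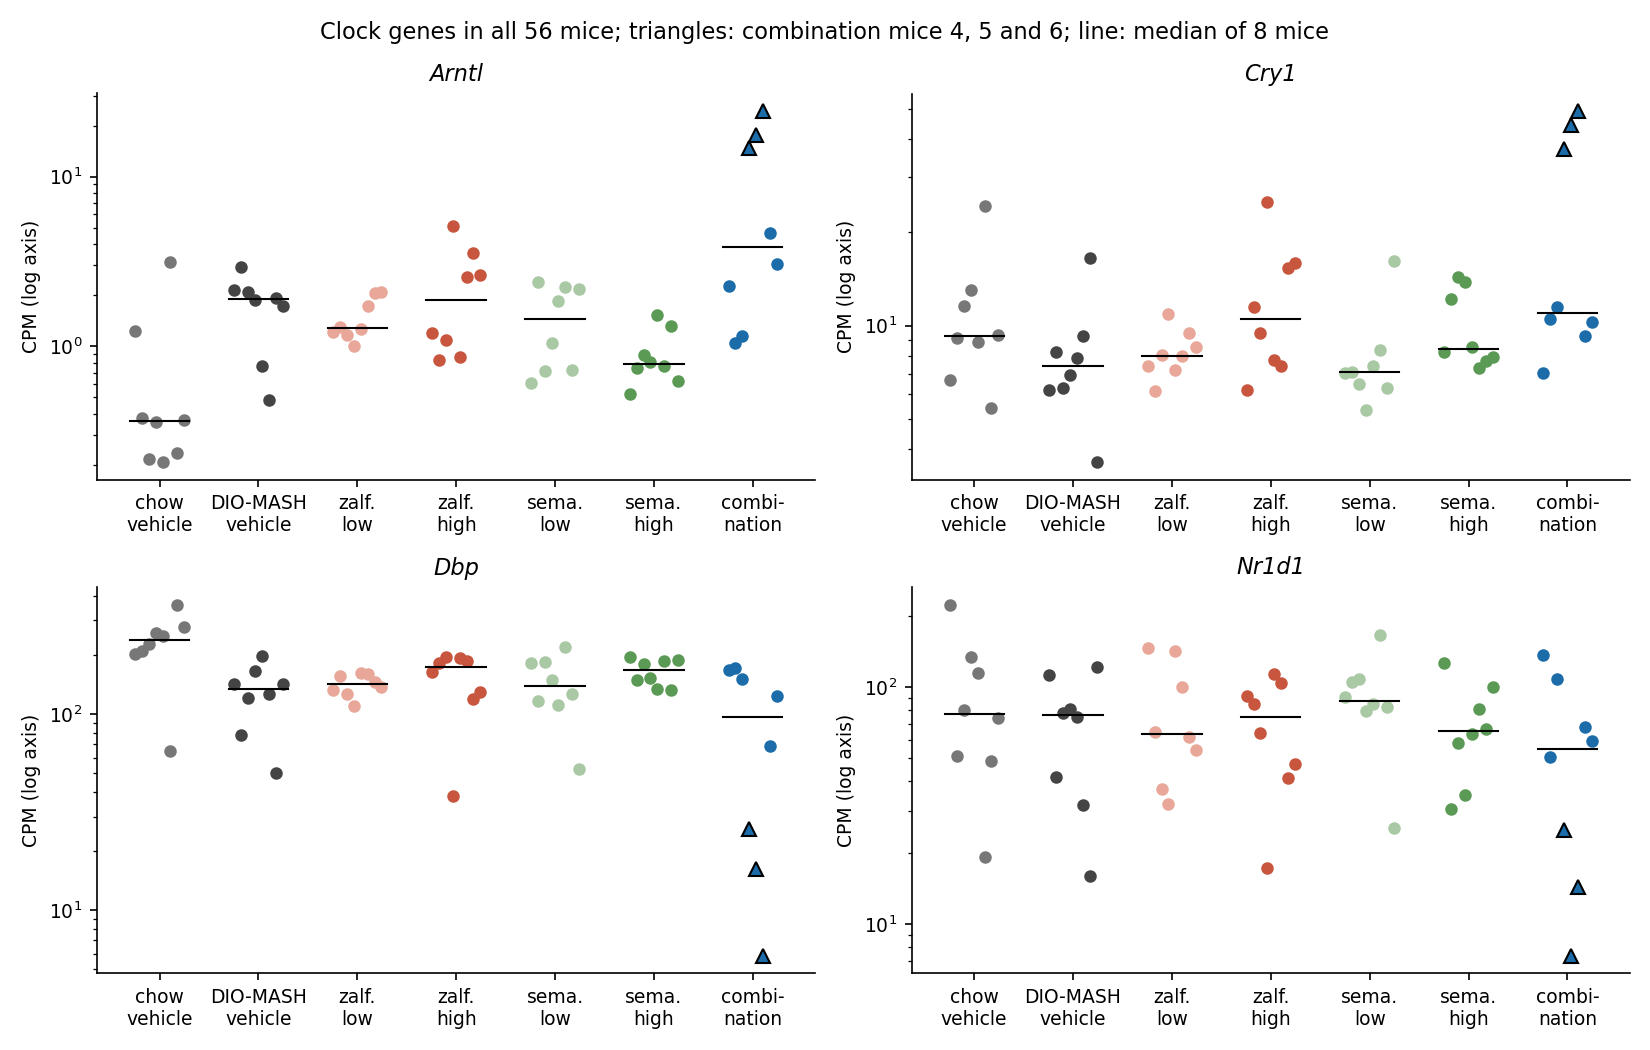
CPM on a log axis of Arntl, Cry1, Dbp and Nr1d1 in all 56 mice, 8 per group, with triangles for combination mice 4, 5 and 6 and a line at each group's median. The triangles lie above all other mice for Arntl and Cry1 and below them for Dbp, and high-dose zalfermin mouse 4 is the next lowest for Dbp at 38 CPM.

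A set of higher DEGs followed the same 3 mice. For 13 of the 46 higher DEGs, combination mice 4, 5 and 6 had the 3 highest values of the 16, and for 4 of the 25 lower DEGs the 3 lowest. These 17 are 23.9% of the DEGs, and part of this share follows from choosing genes that differ between the groups. Tubb2a, a beta-tubulin (chr13:34074274-34078007), was 117, 159 and 299 CPM in mice 4, 5 and 6. The other 5 were at 22.7 to 45.5 CPM and high-dose zalfermin at 12 to 28.6 CPM. It had the largest rise of all DEGs, 2.08 ± 0.41 on the log2 scale (edgeR adjusted p = 0.00986), which was 0.51 without the 3 mice. Cdkn1a, the cell cycle inhibitor p21 (chr17:29090976-29100727), was 45.1, 38.8 and 102 CPM in them, 1.23 to 18 CPM in the other 5 and 2.43 to 11.6 CPM on high-dose zalfermin. Its rise of 2.07 ± 0.51 (edgeR adjusted p = 0.0406) was 0.39 without them. Of the 44 cell cycle genes tested, Cdkn1a was the only one past the threshold, and Mki67, a marker of dividing cells, had -0.36 ± 0.34.

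Insig2, which retains the sterol sensor SCAP in the endoplasmic reticulum, was 191, 316 and 368 CPM in combination mice 4, 5 and 6, 58.4 to 171 CPM in the other 5 and 58.9 to 145 CPM on high-dose zalfermin (1.0 ± 0.22, edgeR adjusted p = 0.0239). It was the 1 DEG among 23 genes of de novo lipogenesis, and its difference was 0.45 without the 3 mice. Chka, choline kinase alpha, the first enzyme of phosphatidylcholine synthesis from choline, was 61.8, 55.7 and 95.2 CPM in them, 11.6 to 30.7 CPM in the other 5 and 11.3 to 32.7 CPM on high-dose zalfermin. The rise of 1.04 ± 0.25 became 0.14. Dhrs9, a retinol and steroid dehydrogenase, ranged from 3.84 to 19.1 CPM (median 10.6) on the combination and from 1.24 to 5.86 CPM (median 3.61) on high-dose zalfermin, and its rise of 1.61 ± 0.39 was 1.01 without them. The differences of Clpx, a mitochondrial protease subunit (0.84), Tubb4b, another beta-tubulin (0.82), Acnat2, a peroxisomal acyltransferase (0.92), and Trim2 (0.69) were 0.31, 0.35, 0.47 and 0.38 without the 3 mice. The 7 DEGs without an unadjusted p under 0.05 when the 3 mice were left out were Tubb2a, Cdkn1a, Arntl, Chka, Acnat2, Clpx and Tubb4b.

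The smallest rises past the threshold were 0.26 ± 0.06 (Npepps, an aminopeptidase) and 0.27 ± 0.06 (Vps11, of the complexes that tether endosomes). Among the other higher DEGs, grouped after their values were seen, were genes of the secretory pathway: Srprb, the signal recognition particle receptor beta subunit (0.60 ± 0.12), Stt3b, a catalytic subunit of oligosaccharyltransferase (0.28 ± 0.07), Ube2g2, a ubiquitin-conjugating enzyme of ER-associated degradation (0.49 ± 0.12), and Arfgap3, which acts in Golgi transport (0.76 ± 0.19, and 0.51 without combination mouse 3, where it did not pass the threshold). Tab2, an adaptor of the kinase TAK1, ranged from 57.5 to 87.2 CPM (median 77.5) on the combination and from 50.3 to 59.8 CPM (median 55.6) on high-dose zalfermin (0.46 ± 0.09, edgeR adjusted p = 0.00773). Slc6a13, the GABA and taurine transporter GAT2, rose by 0.44 ± 0.10, and Cars, the cysteinyl-tRNA synthetase, by 0.52 ± 0.11. Ddx21, an RNA helicase of the nucleolus (0.38 ± 0.07), and Ppm1g, a protein phosphatase (0.39 ± 0.08), were among 10 DEGs that passed the threshold with each of the 16 mice left out in turn. The others were Mup2, Slc38a3, Azin1, Rad51b, Zfp385a, Capn10, Srprb and Tab2. All 71 DEGs kept their sign in these 16 fits, in which between 13 (without combination mouse 4) and 109 (without combination mouse 2) genes passed the threshold. The sample numbers of these mice fell into 3 number series, called A, B and C here, whose meaning is not given. These series are wider than the runs of neighboring sample numbers used as a block below. Among the DEGs, 69 of the 71 had the same direction in all 3 series, as did 31.3% of all genes tested in either direction. The exceptions were Cdkn1a and Ift140, each with a difference near 0 in series A. Because the DEGs were chosen from these same mice, agreement across the 16 fits and the 3 series follows in part from that choice. The share over all genes, which were not chosen so, is no like comparison. In series B the combination had only mice 5 and 6, which stood apart in their clock genes.

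None of the 30 male-biased liver genes tested, which growth hormone pulses sustain in male liver, passed the threshold. Of these, 26 were lower on the combination, 20 of them and none of the higher at an unadjusted p under 0.05, and the median log2 fold change was -0.99. Over all genes tested, 10.9% had an unadjusted p under 0.05, and the median was -0.01. Mup7 ranged from 1.37 to 27 CPM (median 5.81) on the combination and from 6.78 to 519.9 CPM (median 44) on high-dose zalfermin (-3.59 ± 1.10, edgeR adjusted p = 0.124), with chow-fed mice at a mean of 425 CPM. Serpina1e, an alpha-1-antitrypsin paralog, ranged from 17.8 to 148 CPM (median 48.8) and from 28.5 to 345 CPM (median 225) in the same order (-2.01 ± 0.72, edgeR adjusted p = 0.214), with both medians below the means of vehicle mice (261 CPM) and chow-fed mice (7267 CPM). The groups overlapped for each of these genes, within wide ranges on high-dose zalfermin. The list's median was -1.13 without combination mice 4, 5 and 6. Several of its members are Mup genes whose reads could have been shared, and Mup2, the DEG, is not on the list.

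Female-biased liver genes had a median of 0.27, with 22 of 30 higher, 7 higher and 1 lower at an unadjusted p under 0.05, and Cyp4a14 past the threshold. Cyp2a4, a steroid 15-alpha-hydroxylase, ranged from 16.4 to 127 CPM (median 90.8) on the combination and from 9.66 to 66.6 CPM (median 17.5) on high-dose zalfermin (1.71 ± 0.50, edgeR adjusted p = 0.0994). Sult1e1, the estrogen sulfotransferase, had -1.43 ± 0.53 (edgeR adjusted p = 0.236). Genes of the growth hormone axis themselves gave no DEG. Igf1 averaged 470.3 CPM on the combination and 482 CPM on high-dose zalfermin (log2 fold change -0.04, 95% interval -0.28 to 0.20), and Igfbp2 720.1 and 723 CPM (-0.01, 95% interval -0.32 to 0.31).

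Bile acid synthesis gave no DEG of 23 genes, with values near the threshold for the enzymes that set the amount and the kind of bile acid. Cyp7a1, the rate-limiting enzyme, ranged from 57.7 to 225 CPM (median 142) on the combination and from 168 to 531 CPM (median 389) on high-dose zalfermin. The 4 lowest values of the 16 were in combination mice and the 6 highest in high-dose zalfermin mice, and the log2 fold change was -1.34 ± 0.36 (edgeR adjusted p = 0.0597), with -1.22 without combination mice 4, 5 and 6. Vehicle mice averaged 161 CPM, close to the combination. Cyp8b1, which makes cholic acid, ranged from 68.5 to 428 CPM (median 165) and from 259.8 to 517 CPM (median 387) in the same order (-0.97 ± 0.28, edgeR adjusted p = 0.1). Without combination mice 4, 5 and 6 the difference of Cyp8b1 was -1.40 (edgeR adjusted p = 0.0786). DESeq2's Wald test placed both past its threshold (adjusted p = 0.0234 and 0.0406), as did edgeR with runs of neighboring sample numbers as a block (adjusted p = 0.0205 and 0.0329). With the number series as covariate Cyp7a1 passed it (edgeR adjusted p = 0.0477), and with 1 mouse left out Cyp7a1 did without combination mouse 2 (0.0468) and Cyp8b1 without combination mouse 5 (0.0325). Cyp39a1, an oxysterol 7-alpha-hydroxylase, had 0.54 ± 0.14 (edgeR adjusted p = 0.0516). The uptake carriers Slc10a1 and Slco1a4 had -0.10 and 0.21, with 95% intervals of -0.38 to 0.17 and -0.23 to 0.64.

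Other lists had counts at an unadjusted p under 0.05 that lay mostly in 1 direction, without a DEG. Of 42 interferon-stimulated genes, 38 were lower on the combination, 13 of them at an unadjusted p under 0.05, with a median of -0.22 and values from -0.87 (Mx1) to -0.30 (Ifih1, the RNA sensor MDA5) among the 13. Of 31 acute phase proteins, 24 were higher and 11 had an unadjusted p under 0.05, with a median of 0.35 that was 0.16 without combination mice 4, 5 and 6. Saa1, serum amyloid A1, ranged from 35.3 to 1522 CPM (median 139) on the combination and from 92 to 213 CPM (median 161) on high-dose zalfermin. It was at 1522 CPM in combination mouse 6 and at 535 CPM in mouse 8. Its log2 fold change was 1.16 ± 0.72 (edgeR adjusted p = 0.59), and 0.42 without mice 4, 5 and 6. Of 55 genes of the urea cycle and amino acid catabolism, 41 were lower, 10 at an unadjusted p under 0.05, among them Sds, serine dehydratase (-0.81 ± 0.32), Got1 (-0.68 ± 0.23) and Oat, ornithine aminotransferase (-0.58 ± 0.21). Chaperones of the endoplasmic reticulum were higher for 21 of 25 genes, 7 at an unadjusted p under 0.05. Hspa5, the chaperone BiP, had 0.49 ± 0.17 (edgeR adjusted p = 0.213), and Manf and Creld2 0.76 ± 0.23 and 0.77 ± 0.26. Without combination mice 4, 5 and 6 the 3 genes had 0.32, 0.53 and 0.37. The list's median was 0.14, and 0.04 without the 3 mice.

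**Figure D4:**
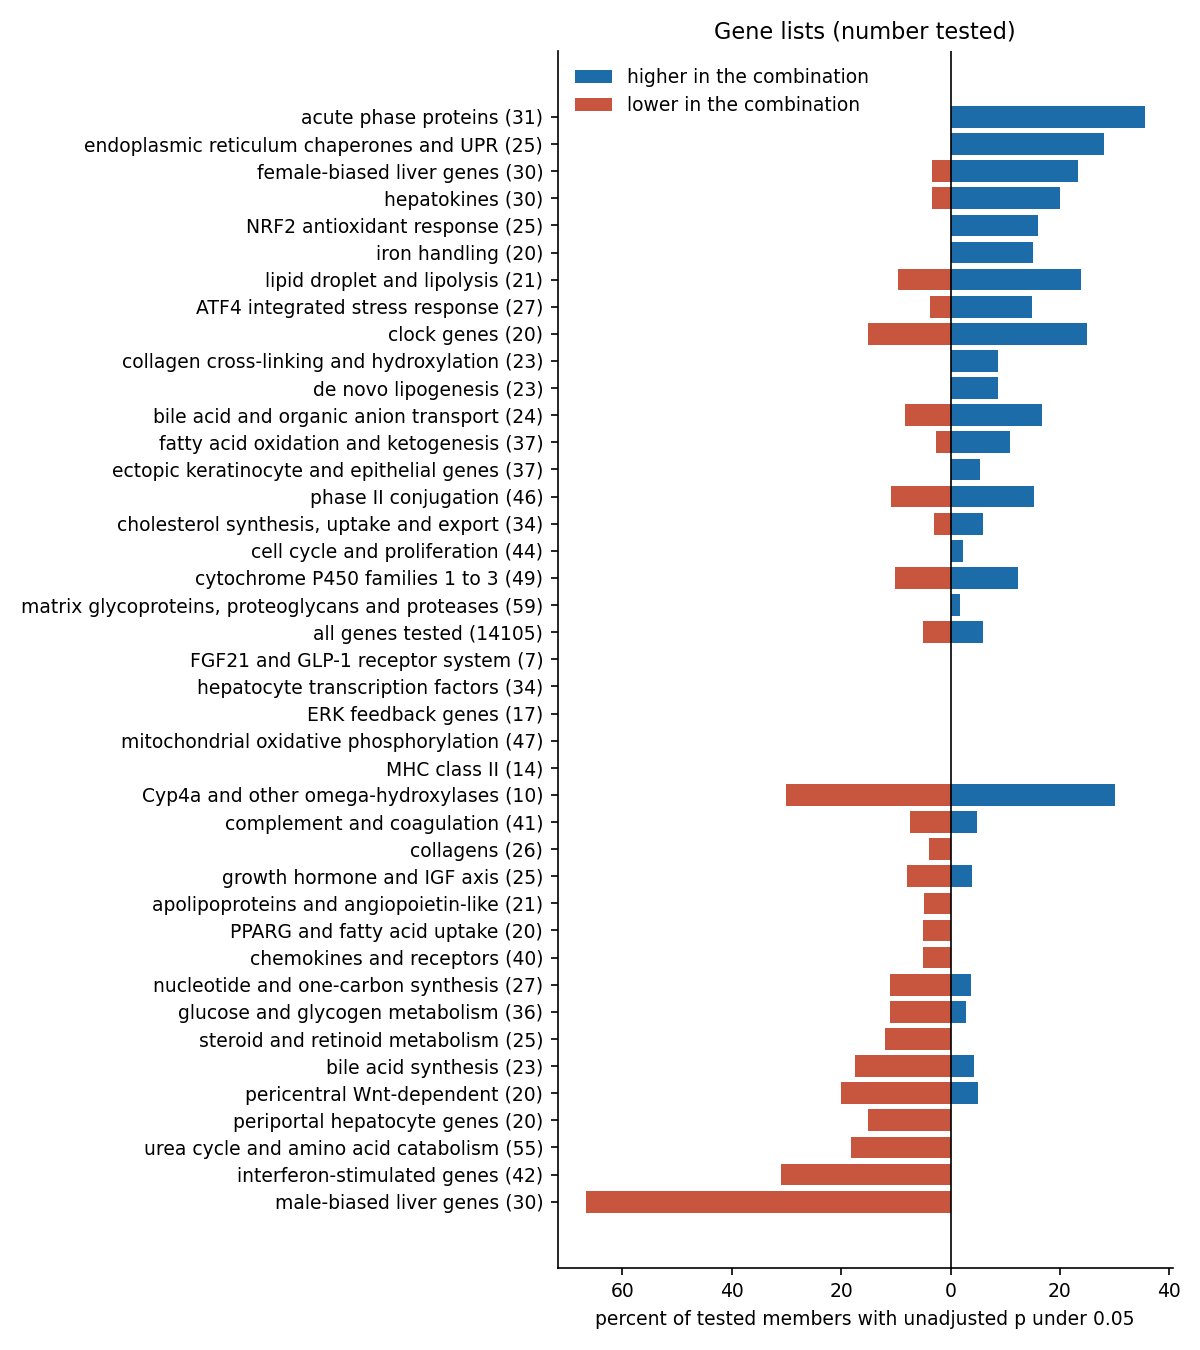
Percent of the tested members of each gene list with an unadjusted p under 0.05 in the comparison of the combination with high-dose zalfermin, higher on the combination to the right and lower to the left, with the number tested in parentheses. Male-biased liver genes reach furthest to the left with 20 of 30 and acute phase proteins furthest to the right with 11 of 31, beside 837 higher and 707 lower of 14105 for all genes tested.

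Of 7 tested genes of the FGF21 and GLP-1 receptor system, 0 passed the threshold. Fgf21 had the largest value of this list, 0.80 ± 0.41 (95% interval -0.02 to 1.62, edgeR adjusted p = 0.467). It averaged 2.79 CPM on the combination and 1.58 CPM on high-dose zalfermin. Klb, beta-klotho, averaged 40.8 CPM on the combination and 44 CPM on high-dose zalfermin (-0.10, 95% interval -0.39 to 0.19), and Fgfr4 44.2 and 37.7 CPM (0.23, 95% interval -0.01 to 0.47). Dusp6, a feedback phosphatase of ERK signaling, had 0.05 (95% interval -0.25 to 0.35), with 0 of 17 ERK feedback genes at an unadjusted p under 0.05. Of 26 collagens, 0 were DEGs, 1 had an unadjusted p under 0.05 (Col14a1) and 20 had a 95% interval within a factor of 2. On the combination 21 of the 26 were lower, beside 7367 of all 14105 genes tested. Their median log2 fold change was -0.11, and -0.16 without combination mice 4, 5 and 6. Col1a1 averaged 60.9 CPM on the combination and 62.3 CPM on high-dose zalfermin, beside 271 CPM in vehicle mice (-0.03, 95% interval -0.78 to 0.71). Col3a1 had -0.14 (95% interval -0.75 to 0.48 and -0.27 without combination mice 4, 5 and 6), and Timp1, an inhibitor of matrix proteases, 0.28 (95% interval -0.48 to 1.03). Cidea, a lipid droplet protein induced in fatty liver, averaged 1.41 and 2.94 CPM, beside 46.4 CPM in vehicle mice (-0.92 ± 0.51, edgeR adjusted p = 0.516). Without combination mice 4, 5 and 6 its difference was -1.88, with an unadjusted p of 0.00379 and an adjusted p of 0.262 (edgeR). Plin2, a lipid droplet coat protein, averaged 529.8 and 429 CPM (0.31, 95% interval 0.00 to 0.61, and 0.11 without combination mice 4, 5 and 6), and Fasn, fatty acid synthase, 3488 and 2186 CPM (0.67 ± 0.35, and -0.08 without them). Of 47 genes of oxidative phosphorylation 0 had an unadjusted p under 0.05, and all 47 intervals lay within a factor of 2. Cyp2b9 averaged 140.4 and 82.7 CPM and Cyp2b13 6.53 and 4.69 CPM, both above vehicle mice (8.36 and 0.687 CPM), and had 0.77 ± 0.68 and 0.52 ± 0.50 (edgeR adjusted p = 0.771 and 0.799), with 95% intervals of -0.59 to 2.14 and -0.48 to 1.51. Without combination mice 4, 5 and 6 they had 0.48 and 0.02. A list of 48 genes taken from the study's text, which does not hold every gene named there (Cyp7a1, given above, is not on it), had 0 DEGs and 2 genes with an unadjusted p under 0.05. These were Ppard (0.87 ± 0.27, -0.07 without combination mice 4, 5 and 6) and Atf4 (0.46 ± 0.13, edgeR adjusted p = 0.082). Atf4 passed the threshold with DESeq2 (adjusted p = 0.0369), with runs of neighboring sample numbers as a block (edgeR adjusted p = 0.0418), and without high-dose zalfermin mouse 4 (0.0498) or combination mouse 2 (0.0404).

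On principal components of the 500 most variable genes over all 56 mice, the groups differed on the second (PC2, 10.3% of the variance). Scores of the combination ranged from 7.04 to 12.7 (mean 10.2 ± 1.94 SD, n = 8) and those of high-dose zalfermin from 2.31 to 11.7 (mean 5.08 ± 3.07). The combination lay 5.15 units higher (permutation test as above, exact and two-sided, p = 0.00326, adjusted p = 0.00979 over 3 components), with 2 high-dose zalfermin mice within the range of the combination. When components were taken from log2 CPM in place of variance-stabilized counts, the difference did not pass the threshold on the second component (exact permutation adjusted p = 0.726) but did on the third (7.20 units, exact permutation adjusted p = 0.0168). Components of different input are different axes and can change order, and which of these corresponds to PC2 was not tested. With combination mice 4, 5 and 6 left out of the test only, the difference on PC2 was 5.1 units (exact permutation adjusted p = 0.0303). The components were still those of all 56 mice. Genes with the highest weights on PC2 were Cyp2b9, Cyp2a4, Hamp2 and Cyp17a1, and those with the lowest Serpina1e, Cyp4a12a, Cyp4a12b and Mup14. Of these, Cyp2a4 is given above as female-biased, and Serpina1e, Cyp4a12a and Cyp4a12b as male-biased. Cyp17a1 itself was lower on the combination (log2 fold change -0.26 ± 0.34). Male-biased genes were not confined to PC2, since Serpina1e and Mup7 also had high weights on PC1, and Mup7 on PC3. Only 8 of the 71 DEGs were among the 500 genes. On PC1 (48.8%), where chow-fed mice averaged 25.3 and vehicle mice -13.4, the combination averaged 0.591 ± 6.31 and high-dose zalfermin 2.27 ± 6.15. On PC3 (8.06%) they differed by -2.25 units (exact permutation p = 0.0469, adjusted p = 0.0704).

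**Figure D5:**
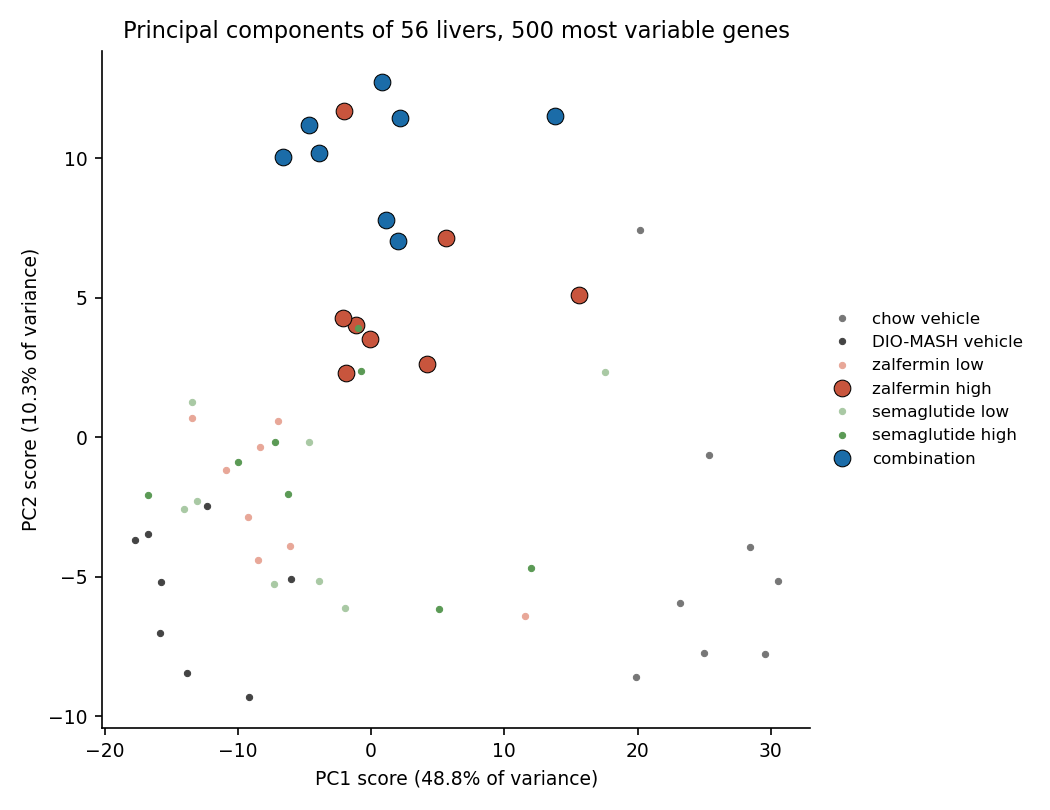
Scores of all 56 livers on PC1 (horizontal, 48.8% of the variance) and PC2 (vertical, 10.3%), with high-dose zalfermin and combination mice as large circles and the other groups as dots. The combination mice lie between 7.04 and 12.7 on PC2, and 6 of the 8 high-dose zalfermin mice below all of them.

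Markers of other liver cells gave no DEG. Summed over their lists, activated stellate cell markers were 85.6 to 341 CPM on the combination and 70.6 to 406 CPM on high-dose zalfermin, beside a median of 747 CPM in vehicle mice. Lipid-associated and monocyte-derived macrophage markers were 190.1 to 719.6 and 234 to 667 CPM. T and NK cell markers were lower on the combination for all 10 genes tested (median log2 fold change -0.59, 1 gene at an unadjusted p under 0.05), at sums of 3.24 to 21.7 and 6.63 to 23.3 CPM, beside the 38 of 42 interferon-stimulated genes that were lower, and their part in that count was not tested. B and plasma cell markers were lower in the fit for 6 of 6 genes (median -0.81, and -0.45 without combination mice 4, 5 and 6). Their sums were 6.17 to 86.4 CPM (median 17.3) on the combination and 7.62 to 178 CPM (median 13.4) on high-dose zalfermin. The medians of these sums thus lay the other way. Neutrophil markers were higher for 5 of 5 (median 0.25), at sums of 1.97 to 11.5 CPM (median 4.26) and 3.02 to 5.22 CPM (median 4.23). Sinusoidal endothelial cell and quiescent stellate cell markers were lower for 7 of 7 genes each, with medians of -0.19 and -0.33. Adipocyte markers summed to 0 to 1.86 CPM on the combination and 0.827 to 8.32 CPM on high-dose zalfermin, and Cfd, adipsin, the 1 such marker tested, had -2.48 ± 0.76 (edgeR adjusted p = 0.121). Adipocyte, pancreas and skeletal muscle markers were at or below 15.4 CPM in sum in each of the 16 mice.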

How the data were processed

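Liver RNA of 56 mice was sequenced (TruSeq stranded mRNA, NextSeq 500), and raw read counts per gene were deposited by the authors. The study's methods give alignment to GRCm38 with STAR. The submitters' processing notes name Trim Galore 0.6.4 and Salmon 1.9.0, and the program that made the counts is not given in the sources used here. Groups came from the treatment labels. Counts were fitted with edgeR 4.0.16 (R 4.3.3, TMM, quasi-likelihood test) over all 56 mice and 7 groups, on 14105 of 21935 genes that reached 5 reads in at least 3 mice, with Benjamini-Hochberg adjustment over all of them and a threshold of 0.05. The biological coefficient of variation was 22.6%. Principal components came from the 500 most variable genes after DESeq2 1.42.0 variance stabilization, with two-sided exact permutation tests of 8 against 8 mice, which can give no p below 0.000155. Values were given for the 12 largest rises and 12 largest falls among genes past the threshold, for list genes past it and for part of a set of anchor genes. Anchor genes that are not named, among them Ly6d, Cpt1a, Slc22a26 and Gdf15, did not pass the threshold. The comparison, gene lists and anchor genes were chosen with earlier results of these data known, and leaving out combination mice 4, 5 and 6 was chosen after their values were seen. Other settings were DESeq2's test, its size factors, other filters, label number series and runs of neighboring sample numbers as covariates, only the 16 mice, and each mouse left out. The fitting code was tested on simulated data. Gene coordinates are GRCm38. No 2 libraries of a group agreed within sampling noise (chi-square per degree of freedom of 13.9 or more). P-values measure the spread between mice. The study excluded 1 low-dose semaglutide mouse that the counts do not mark, and the fit holds all 8.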

Additional observations from a re-analysis of the deposited data

Results flagged for a closer look

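In 56 groups of 8 values (24 genes, 3 components and the library totals, in both groups), 3 had a highest or lowest mouse whose gap to the next exceeded Dixon's 95% critical share of the group's range, and chance gives about 1 in 20 such groups. Sowahb was lowest in combination mouse 3, at 4.086 CPM. The PC1 score was highest in combination mouse 3 (13.77) among combination mice and in mouse 6 (15.58) among high-dose zalfermin mice.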

How the results depend on the processing

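No DEG changed sign under any setting that gave it a value, but these settings share the mice from which the DEGs were chosen. The count of 71 DEGs was 76 with DESeq2 size factors and 87 with the stricter filter or without low-dose semaglutide mouse 6, all 71 being among the 87 in both cases. It was 176 with DESeq2's test, 38 with no filter, 130 with the number series as covariate, 16 with only the 16 mice fitted (13 of the 71 kept) and 5 without combination mice 4, 5 and 6. With each mouse left out it ranged from 13 to 109. It moved by over 1.5 times without combination mice 2 (109), 4 (13), 5 (25), 6 (25) or 7 (29) and without high-dose zalfermin mice 1, 2 or 3 (39 each), 5 (19), 6 (40), 7 (42) or 8 (41). The labels give no shared replicate numbers. A replicate block of runs of neighboring sample numbers, whose meaning is not given, gave 186 (66 of the 71 kept). There were 13 such runs, and 6 of them held mice of both groups. PC2 differed by 0.808 on log2 CPM. PC3 differed by -3.56 with 1000 genes, past the threshold, and by 7.20 on log2 CPM, also past it. The sign of a component is arbitrary and these are different axes. With 1 mouse left out of the test and the components kept, PC3 ranged from -2.83 to -1.65. PC1 ranged from -3.56 to 0.223, the last without high-dose zalfermin mouse 6. The cause of these changes was not tested. Depth limits genes of low level, and Mup2 had 5 to 33 reads in combination mice.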
